A study of Mus musculus with 2 samples.

Results

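Non-clustered protocadherins were followed in single-nucleus RNA-seq of the mouse dorsal hippocampal CA1 area, in chronic epilepsy and in controls. The members are the 7 genes Pcdh7, Pcdh8, Pcdh9, Pcdh10, Pcdh15, Pcdh17 and Pcdh19, found by symbol among the 30431 genes of the deposited count tables. All 7 were present in both libraries. Droplet libraries made with 3′ chemistry count unique molecular identifiers (UMIs), each standing for 1 captured RNA molecule of a nucleus.

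The epilepsy library came from male C57BL/6J mice of the cross Calb1::Cre x Tdtomato, 6 to 7 weeks old when they received kainate at 5 mg/kg, repeated until status epilepticus, with diazepam at 4 mg/kg. The control library came from mice of the same sex, strain, transgenes and age that received vehicle. Tissue of both groups was taken 12 weeks later, as micro-dissected dorsal CA1. The labels give 2 mice per condition and do not say whether a library holds nuclei of both. With 1 library per condition there is no replicate and no test: intervals below are 95% intervals for counting error only, and no difference between the libraries can be set against the spread between mice.

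The epilepsy library held 3078 nuclei, 7112131 UMIs and a median of 2443 UMIs per nucleus. The control library held 3661 nuclei, 11858162 UMIs and a median of 3447. The libraries shared 16 nucleus barcodes. Nuclei were clustered with the 7 members left out of the genes used, so that their levels took no part in defining a class, and 2986 epilepsy and 3551 control nuclei were kept. CA1 pyramidal-like nuclei numbered 2340 in epilepsy and 2839 in control. Interneuron-like nuclei numbered 144 and 198, oligodendrocyte-like nuclei 253 and 175, precursor-like nuclei of that lineage 38 and 24, and astrocyte-like nuclei 31 and 30, epilepsy first. CA2/CA3 pyramidal-like nuclei (65 in epilepsy, 40 in control) and dentate granule-like nuclei (14 in epilepsy, 153 in control) were present in a dissection labelled CA1. Mixed clusters with oligodendrocyte or microglia markers on top of CA1 markers stayed unnamed.

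Protocadherins are the largest branch of the cadherin superfamily of calcium-dependent adhesion molecules. The clustered ones share exons in arrays on a single chromosome, whereas the non-clustered ones are separate genes scattered over the genome, each with its own promoter, and many of them bind weakly to copies of themselves on neighbouring membranes. In neurons they are known for axon sorting, dendrite and synapse formation and synapse removal, and loss-of-function variants of human PCDH19 cause an X-linked epilepsy with intellectual disability.

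The members lie at chr5:57717967-58133230 on the plus strand (Pcdh7, ENSMUSG00000029108), chr14:79766775-79771312 on the minus strand (Pcdh8, ENSMUSG00000036422) and chr14:93013410-93890679 on the minus strand (Pcdh9, ENSMUSG00000055421). Pcdh10 (ENSMUSG00000049100) lies at chr3:45378398-45435623 on the plus strand and Pcdh15 (ENSMUSG00000052613) at chr10:73099342-74649737 on the plus strand. Pcdh17 (ENSMUSG00000035566) lies at chr14:84443563-84539002 on the plus strand and Pcdh19 (ENSMUSG00000051323) at chrX:133582860-133688987 on the minus strand, all in GRCm38 with GENCODE M21 gene models. Gene spans run from 4538 bases for Pcdh8 to 1550396 bases for Pcdh15, so levels are compared here within a gene and never between genes. The gene models that overlap a member lie on the opposite strand, and no source used here says whether the counting took strand into account. Of them, Gm15398 over Pcdh15 had 67 UMIs in epilepsy and 84 in control, 9630013A20Rik over Pcdh17 had 35 and 27, and 1700027H10Rik over Pcdh10 had 10 and 8, epilepsy first.

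Between the sublayers of the CA1 pyramidal layer, Pcdh7 and Pcdh19 were higher in superficial-like nuclei and Pcdh10 and Pcdh17 in deep-like nuclei, in both libraries. The size of these gaps depends on how the sublayers are set: with nuclei divided by their own marker scores, Pcdh7 stood at 1.29 in epilepsy and 1.48 in control on the log2 scale, superficial over deep, and Pcdh19 at 0.45 in epilepsy and 0.40 in control, so that Pcdh19 was no longer past 1.5-fold. The deep-like subcluster (556 epilepsy and 793 control nuclei) was recognised by Ndst4 and Col11a1. Of the other listed deep markers, Nr4a2 was also above the other pyramidal nuclei, at 1.14 on the log2 scale. Sox5 and Enpp2 went the other way, at -0.66 and -1.38. The superficial-like nuclei (889 and 1057, epilepsy first) were 2 subclusters with Calb1 above the other pyramidal nuclei, by 1.08 and 0.46 on the log2 scale, while Calb1 in the deep-like subcluster was lower by 2.09. Calb1 was not particular to them. It was also above in 2 subclusters without a sublayer name, 1 of few UMIs (0.80) and 1 with activity genes (0.46), both described below. Epha3 was at 0.41 and 1.39 in the superficial-like subclusters and at -0.13 and -0.25 in those 2. The marker score used above counts Sox5 and Enpp2 as deep markers. In these 2 superficial-like subclusters Enpp2 was at 1.11 and 0.38 and Sox5 at -1.16 and 1.15, in the same order. Levels are UMIs of a gene per 1000000 UMIs of the class (CPM).

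Pcdh7, an adhesion molecule that binds protein phosphatase 1 through its cytoplasmic tail, showed the widest sublayer gap of the members. In the epilepsy library it was at 156 CPM (361 UMIs) in superficial-like nuclei and 20.3 CPM (30 UMIs) in deep-like nuclei, a log2 ratio of superficial to deep of 2.94 (95% interval 2.40 to 3.53). In the control library it was at 127 CPM (489 UMIs) in superficial-like nuclei and 11.1 CPM (32 UMIs) in deep-like nuclei, a log2 ratio of 3.52 (3.00 to 4.08). The gap ran through the superficial nuclei as well. The subcluster with Necab1, Grik4 and Epha3 had 208 CPM in epilepsy and 181 CPM in control, and the subcluster with Tenm3, Lingo2 and the highest Calb1 had 112 CPM in epilepsy and 74.0 CPM in control. The log2 ratio of the first of these subclusters to the second was 0.90 (0.59 to 1.21) in epilepsy and 1.29 (1.00 to 1.58) in control. Of all genes measured in that comparison, 4.34% were past 1.5-fold higher and 2.97% lower in epilepsy, and 4.0% higher and 2.84% lower in control. Thinned to 1000 UMIs per nucleus, 14.1% of superficial-like and 1.47% of deep-like nuclei in epilepsy had a Pcdh7 UMI, against 10% of superficial-like and 1.28% of deep-like nuclei in control.

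Pcdh19, which works in cis with N-cadherin and recruits the WAVE actin regulators, had 93.3 CPM (216 UMIs) in superficial-like and 48.0 CPM (71 UMIs) in deep-like nuclei of the epilepsy library. In the control library it had 98.2 CPM (377 UMIs) in superficial-like and 57.6 CPM (166 UMIs) in deep-like nuclei. The log2 ratio of superficial to deep was 0.96 (0.57 to 1.37) in epilepsy and 0.77 (0.50 to 1.04) in control. Within the superficial nuclei the levels were close: the Necab1 and Grik4 subcluster had 105 CPM in epilepsy and 101 CPM in control, and the Tenm3 and Lingo2 subcluster 83.4 CPM in epilepsy and 95.3 CPM in control.

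Pcdh10, which takes part in synapse elimination downstream of MEF2 and the fragile X protein, ran the other way. It had 14.3 CPM (33 UMIs) in superficial-like and 39.9 CPM (59 UMIs) in deep-like nuclei of the epilepsy library, and 28.4 CPM (109 UMIs) in superficial-like and 59.0 CPM (170 UMIs) in deep-like nuclei of the control library. Its log2 ratio of superficial to deep was -1.48 (-2.14 to -0.85) in epilepsy and -1.05 (-1.42 to -0.70) in control. Pcdh17, known for sorting axons and for limiting synaptic vesicle assembly in corticobasal circuits, had 33.3 CPM (77 UMIs) in superficial-like and 94.6 CPM (140 UMIs) in deep-like nuclei in epilepsy. In control it had 39.3 CPM (151 UMIs) in superficial-like and 99.2 CPM (286 UMIs) in deep-like nuclei. Superficial over deep, Pcdh17 stood at -1.51 on the log2 scale (-1.93 to -1.10) in epilepsy and -1.33 (-1.63 to -1.05) in control.

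Pcdh9, a synaptic and glial adhesion molecule, and Pcdh15, a tip-link component of hair cells with little known function in pyramidal neurons, were close to even. Pcdh9 differed by 0.24 (0.17 to 0.31) on the log2 scale in epilepsy and 0.16 (0.11 to 0.21) in control, superficial over deep. The intervals of Pcdh15 held 0 in both libraries, at 0.33 (-0.11 to 0.79) in epilepsy and 0.15 (-0.26 to 0.58) in control. In each library 2 of the 6 members with at least 50 UMIs were past 1.5-fold higher in superficial-like nuclei and 2 were past 1.5-fold lower, a count for sublayers set by cluster that Pcdh19 leaves when they are set by marker score. Of all genes measured in the same way, 13.9% were past it higher and 6.43% lower in epilepsy, and 9.25% higher and 5.58% lower in control.

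**Figure D1:**
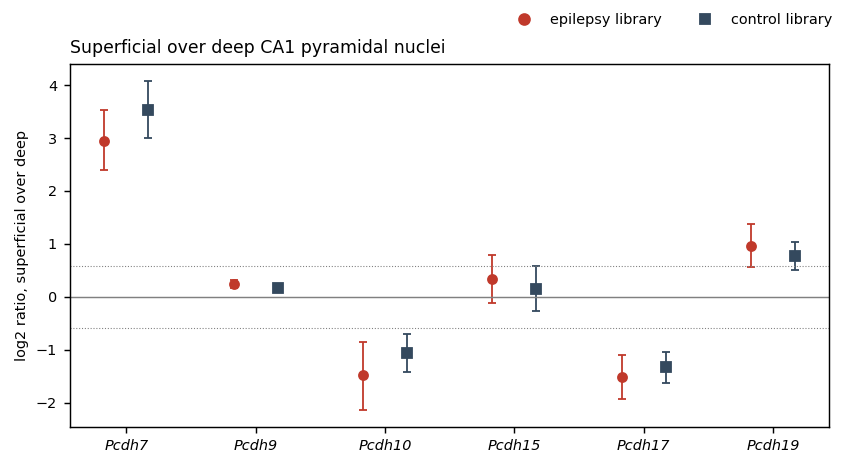
Log2 ratio of superficial-like to deep-like CA1 pyramidal nuclei for each member (x axis) in the epilepsy library (red) and the control library (dark), with 95% counting intervals and dotted lines at 1.5-fold. Pcdh7 and Pcdh19 lie above the upper dotted line, Pcdh10 and Pcdh17 below the lower one, and Pcdh9 and Pcdh15 between them, in both libraries.

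The 250 bases upstream of the RefSeq start (GRCm38.p6) are shown for the genes with a sublayer gap and for Pcdh15, the member with the largest epilepsy to control ratio in CA1, because each of these genes has a promoter of its own. The windows are at chrX:133688994-133689243 on the minus strand (Pcdh19), chr3:45378148-45378397 on the plus strand (Pcdh10), chr14:84443313-84443562 on the plus strand (Pcdh17) and chr10:73821617-73821866 on the plus strand (Pcdh15, inside the GENCODE gene span, before an internal start). For Pcdh7 the 136 bases at chr5:57717831-57717966 on the plus strand that lie outside the GENCODE exon are printed. Capitals mark 4 motifs on either strand: the CAAT box (CCAAT), the TATA box (TATAAA), the GC box (GGGCGG) and the core of the cyclic AMP response element (TGACGT).
Pcdh7: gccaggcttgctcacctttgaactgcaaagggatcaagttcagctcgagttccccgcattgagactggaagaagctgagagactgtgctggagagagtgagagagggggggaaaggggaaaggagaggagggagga
Pcdh19: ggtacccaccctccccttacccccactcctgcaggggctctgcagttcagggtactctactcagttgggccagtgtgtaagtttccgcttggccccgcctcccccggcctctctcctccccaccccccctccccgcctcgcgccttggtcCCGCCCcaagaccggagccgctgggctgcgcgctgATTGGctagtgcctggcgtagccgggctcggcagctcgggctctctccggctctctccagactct
Pcdh10: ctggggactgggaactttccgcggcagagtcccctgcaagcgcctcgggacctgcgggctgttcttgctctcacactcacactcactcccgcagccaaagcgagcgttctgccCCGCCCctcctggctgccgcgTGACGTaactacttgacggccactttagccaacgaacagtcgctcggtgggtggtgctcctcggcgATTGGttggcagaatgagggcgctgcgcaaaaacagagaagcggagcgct
Pcdh17: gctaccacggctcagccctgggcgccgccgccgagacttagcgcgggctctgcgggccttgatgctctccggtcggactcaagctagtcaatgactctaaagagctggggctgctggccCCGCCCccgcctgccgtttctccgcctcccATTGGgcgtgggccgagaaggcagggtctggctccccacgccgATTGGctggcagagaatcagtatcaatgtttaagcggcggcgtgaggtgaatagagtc
Pcdh15: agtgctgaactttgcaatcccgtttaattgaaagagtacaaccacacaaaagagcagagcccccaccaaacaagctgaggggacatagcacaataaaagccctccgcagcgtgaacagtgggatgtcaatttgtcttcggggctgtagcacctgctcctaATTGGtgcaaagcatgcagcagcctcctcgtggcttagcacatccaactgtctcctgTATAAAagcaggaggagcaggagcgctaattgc
The letters CCAAT on either strand were found in the windows of 6 of the 7 members, all but Pcdh7, and in 34.5% of 27025 promoter windows of the same length. GGGCGG on either strand was in 3 member windows and 32.9% of all windows, TATAAA in 2 member windows and 3504 of all windows, and TGACGT in 1 and 6.56%. None of the 4 was in the Pcdh7 window. The superficial Pcdh19 and the deep Pcdh10 and Pcdh17 windows share the same pair of letters, CCAAT and GGGCGG, so these motifs do not sort the genes by sublayer, and a match is a description of letters and not of a bound site. Base composition was high in G and C for Pcdh19 (69.2%), Pcdh17 (64.8%) and Pcdh10 (63.2%) and near the median of all windows (52.0%) for Pcdh15 (50.4%).

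The remaining pyramidal nuclei formed 3 more subclusters. Nuclei led by Mkx and Cdh4 had Pcdh7 at 76.1 CPM in epilepsy and 78.0 CPM in control, and Pcdh17 at 51.0 CPM in epilepsy and 74.7 CPM in control. Nuclei led by the activity genes Nr4a3, Homer1, Fos and Junb had Pcdh7 at 98.0 CPM in epilepsy and 71.6 CPM in control, Pcdh17 at 56.8 CPM in epilepsy and 72.6 CPM in control, and Pcdh19 at 46.9 CPM in epilepsy and 73.6 CPM in control. Both groups of nuclei lay between the deep-like and superficial-like levels for Pcdh17 in each library, and for Pcdh7 too. A last subcluster of few UMIs (a median of 1160 in epilepsy and 1350 in control) had Neat1 among its leading genes.

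**Figure D2:**
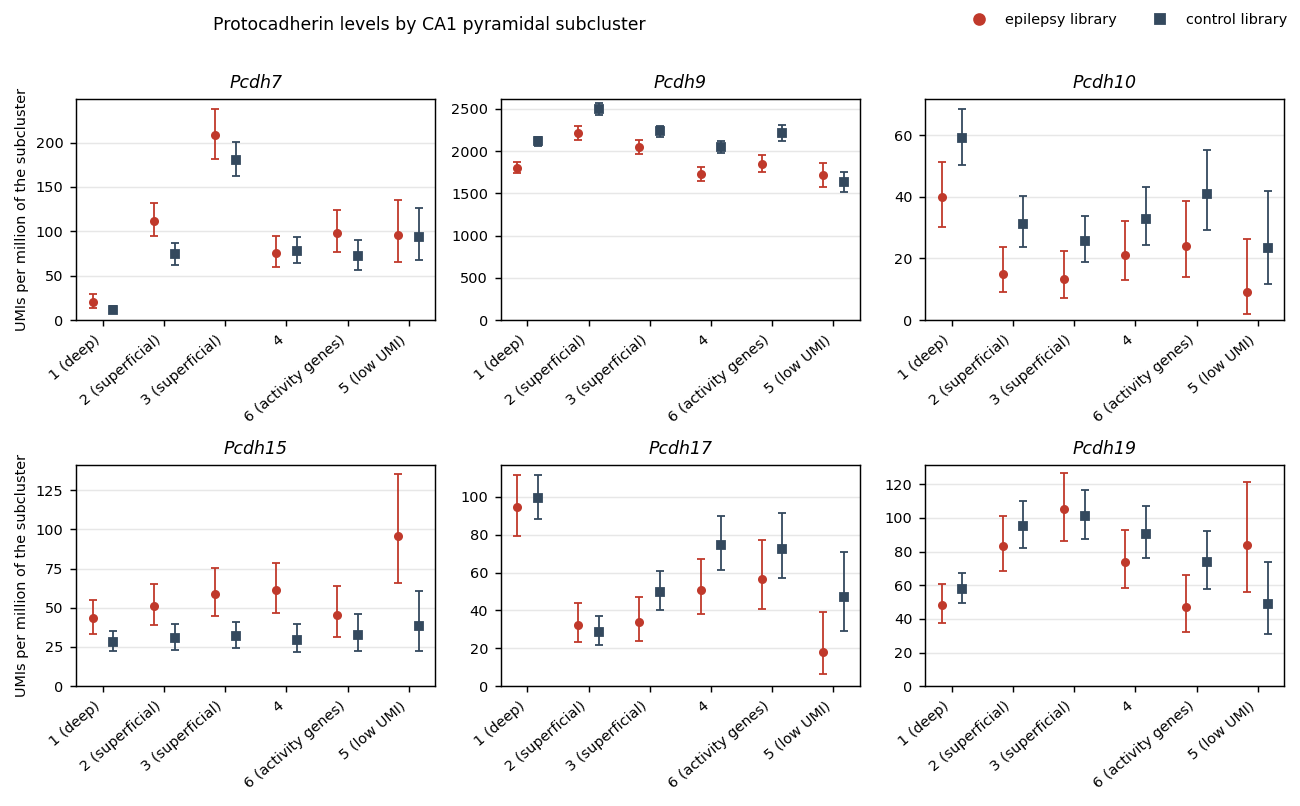
CPM of the members (y axis, linear from 0) in the 6 pyramidal subclusters (x axis), from the deep-like to the superficial-like ones and then the others, in epilepsy (red) and control (dark) with 95% Poisson intervals. In the epilepsy library Pcdh7 is at 208 CPM in the Necab1 and Grik4 subcluster and 20.3 CPM in deep-like nuclei, and Pcdh15 is higher in epilepsy than in control in all 6.

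Between the libraries, CA1 pyramidal-like nuclei in epilepsy had more Pcdh15 and less Pcdh10, with smaller differences for Pcdh7, Pcdh17 and Pcdh9. Pcdh15 had 54.0 CPM (315 UMIs) in epilepsy and 30.5 CPM (297 UMIs) in control, a log2 ratio of epilepsy to control of 0.82 (0.59 to 1.06). Pcdh10 had 22.8 CPM (133 UMIs) in epilepsy and 39.2 CPM (381 UMIs) in control, a log2 ratio of -0.78 (-1.08 to -0.49). These were the members past 1.5-fold: 1 of 6 higher, where 8.65% of 11078 genes were, and 1 of 6 lower, where 5.0% were. A single gene in each direction is too few to set against those shares.

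Pcdh7 had 97.4 CPM (568 UMIs) in epilepsy and 77.8 CPM (756 UMIs) in control, a log2 ratio of 0.32 (0.17 to 0.48). This CA1 level is 0.053 of that of the class where Pcdh7 is highest, and the deep-like level 0.0089 of it. The part of free RNA from other classes in the Pcdh7 values was not tested. Pcdh17 had 53.8 CPM (314 UMIs) in epilepsy and 66.4 CPM (646 UMIs) in control, a ratio of -0.30 (-0.50 to -0.11). Pcdh9, which had a UMI in 2883 of all 3078 epilepsy nuclei and 3537 of all 3661 control nuclei, was at 1922 CPM (11211 UMIs) in epilepsy and 2188 CPM (21272 UMIs) in control, a ratio of -0.19 (-0.22 to -0.15). Pcdh19 was at 72.4 CPM (422 UMIs) in epilepsy and 80.0 CPM (778 UMIs) in control, and the interval of its ratio, -0.32 to 0.03, held 0. The median log2 ratio of the 6 members was -0.17, against 0.00 over all genes measured.

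Pcdh8, known in rat as the activity-induced arcadlin, could not be measured: it had 3 UMIs in epilepsy and 6 in control among CA1 pyramidal-like nuclei, 1 in epilepsy and 3 in control among interneurons, and 0 in the other classes.

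**Figure D3:**
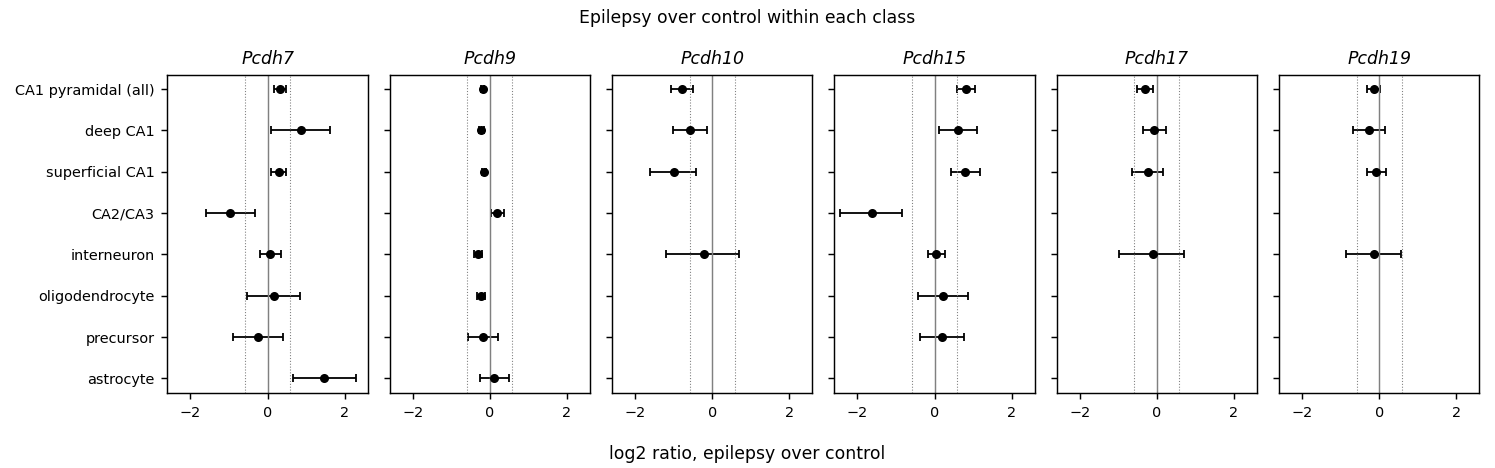
Log2 ratio of epilepsy to control for each member by class, with 95% counting intervals and dotted lines at 1.5-fold, drawn where the 2 libraries together had at least 50 UMIs. In CA1 pyramidal-like nuclei Pcdh15 lies at 0.82 and Pcdh10 at -0.78, while in CA2/CA3 pyramidal-like nuclei Pcdh15 lies at -1.63.

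Pcdh10 had the lower value in epilepsy in all 6 pyramidal subclusters, with intervals that excluded 0 in the deep-like subcluster and both superficial-like ones. Its log2 ratio of epilepsy to control was -0.99 (-1.60 to -0.42) among superficial-like nuclei and -0.57 (-1.02 to -0.13) among deep-like nuclei. Outside those sublayers Pcdh10 was at 21.0 CPM in epilepsy and 32.8 CPM in control in the Mkx and Cdh4 nuclei (-0.64, -1.45 to 0.12), and at 24.2 CPM in epilepsy and 40.8 CPM in control in the nuclei with activity genes (-0.76, -1.66 to 0.09), both with intervals that held 0. The subcluster of few UMIs had 3 Pcdh10 UMIs in epilepsy and 11 in control, too few to be measured. CA1 pyramidal-like nuclei held 78.7% of all Pcdh10 UMIs in the epilepsy library and 83.7% in the control library. In interneurons Pcdh10 had 45.2 CPM (15 UMIs) in epilepsy and 52.9 CPM (35 UMIs) in control, and the interval of the log2 ratio, -1.20 to 0.68, held 0.

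Pcdh15 had the higher value in epilepsy in all 6 pyramidal subclusters, with intervals that excluded 0 in 5 of them. In the nuclei with activity genes it was at 45.5 CPM in epilepsy and 32.8 CPM in control, a ratio of 0.47 (-0.28 to 1.22). Superficial-like nuclei gave it a log2 ratio of 0.80 (0.43 to 1.17), where the level was 54.4 CPM in epilepsy and 31.3 CPM in control, and deep-like nuclei one of 0.62 (0.13 to 1.11), where it was 43.2 CPM in epilepsy and 28.1 CPM in control. It was widest, 1.32, in the subcluster of few UMIs, with 95.9 CPM in epilepsy and 38.4 CPM in control. These pyramidal levels are a small part of those in interneurons, at 793 CPM in epilepsy and 767 CPM in control, and in oligodendrocyte precursor-like nuclei, at 2823 CPM in epilepsy and 2833 CPM in control. In droplet data, free RNA of such nuclei gives UMIs in others. In CA1 pyramidal-like nuclei the summed level of the 8 interneuron markers was 88.0 CPM in epilepsy and 59.3 CPM in control, with none of the 8 at 0. Erbb4 was at 54.4 CPM in epilepsy and 33.5 CPM in control and Gad1 at 7.89 CPM in epilepsy and 3.70 CPM in control, while Nxph1 was at 10.973 CPM in epilepsy and 11.005 CPM in control. The 6 precursor markers summed to 37.4 CPM in epilepsy and 30.0 CPM in control, with Cspg4 and Olig2 at 0 in both libraries. The part of free RNA in the Pcdh15 difference was not tested.

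The deep-like and superficial-like nuclei were not told apart by their epilepsy to control ratios. The difference between the log2 ratios, superficial minus deep, was -0.58 (-1.32 to 0.17) for Pcdh7, -0.43 (-1.13 to 0.28) for Pcdh10 and 0.18 (-0.42 to 0.77) for Pcdh15, and the intervals of all 6 members held 0. In deep-like nuclei 2 of 6 members, Pcdh7 and Pcdh15, were past 1.5-fold higher, where 5.2% of genes were, and 0 were lower, where 8.58% were. The deep-like Pcdh7 value, 0.87 (0.10 to 1.63), rested on 30 UMIs in epilepsy and 32 in control, and it was 0.20 with every nucleus thinned to 1000 UMIs and 0.29 without centring by library. The deep-like Pcdh15 value was 0.37 after the thinning. In superficial-like nuclei 1 member was past 1.5-fold higher, where 7.1% of genes were, and 1 was lower, where 5.76% were.

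Pcdh19 in the nuclei with activity genes had a log2 ratio of epilepsy to control of -0.65 (-1.29 to -0.04), where 5.54% of genes were past 1.5-fold higher and 10.2% lower. Thinned to 1000 UMIs, a UMI of a member other than Pcdh9 was missing from 72.3% of superficial-like nuclei in epilepsy and 73.5% in control, and from 80.7% of deep-like nuclei in epilepsy and 78.3% in control. UMIs of 2 or more of these members were in 2.84% of superficial-like nuclei in each library, and in 1.10% of deep-like nuclei in epilepsy and 1.92% in control.

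CA2/CA3 pyramidal-like nuclei, named after the regions beside CA1 along the pyramidal layer, ran the other way for Pcdh7 and Pcdh15. Pcdh15 had 103 CPM (21 UMIs) in epilepsy and 320 CPM (44 UMIs) in control, a log2 ratio of -1.63 (-2.46 to -0.85). Pcdh7 had 187 CPM (38 UMIs) in epilepsy and 364 CPM (50 UMIs) in control, a ratio of -0.96 (-1.61 to -0.32). Pcdh9 had 4103 CPM (834 UMIs) in epilepsy and 3589 CPM (493 UMIs) in control, a ratio of 0.19 (0.03 to 0.36). These are 0 members past 1.5-fold higher and 2 lower of 3 measured, where 11.1% of genes were past it higher and 11.8% lower. Of the listed CA2/CA3 markers, Cpne4, Grik4, Nectin3 and Cacng5 were above their CA1 levels in both libraries. Rgs14 was near its CA1 level, at 34.4 CPM in epilepsy and 21.8 CPM in control, against 26.2 and 23.8 CPM in CA1. Amigo2 had 3 UMIs in epilepsy and 1 in control, and Iyd 1 and 0. The makeup of this class differed between the libraries: Grik4 was at 964 CPM in epilepsy and 342 CPM in control, and Vwc2l at 93.5 CPM in epilepsy and 444 CPM in control. The part of that makeup in the Pcdh7 and Pcdh15 values was not tested.

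In interneurons, Pcdh7, Pcdh9 and Pcdh15 stood above CA1 pyramidal-like nuclei in both libraries. The log2 ratio of interneuron-like to CA1 pyramidal-like nuclei was 3.88 (3.63 to 4.12) in epilepsy and 4.65 (4.44 to 4.86) in control for Pcdh15, and 2.39 (2.13 to 2.64) in epilepsy and 2.64 (2.45 to 2.83) in control for Pcdh7. For Pcdh9 it was 0.49 (0.39 to 0.59) in epilepsy and 0.61 (0.55 to 0.68) in control. Of all genes measured, 24.1% were past 1.5-fold higher in interneurons and 22.6% lower in epilepsy, and 24.7% higher and 20.1% lower in control.

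Interneurons are commonly grouped by their origin in the ganglionic eminences of the embryo, and the members varied within these groups as well as between them. Nuclei with markers of the medial eminence (MGE; 59 epilepsy and 82 control nuclei) had Pcdh15 at 941 CPM in epilepsy and 714 CPM in control, and nuclei with markers of the caudal eminence (CGE; 47 and 49) had 562 CPM in epilepsy and 468 CPM in control. Of the MGE subclusters, the Sst nuclei were at 1466 CPM in epilepsy and 1124 CPM in control and the Pvalb nuclei at 672 CPM in epilepsy and 508 CPM in control. Of the CGE subclusters, the Vip nuclei were at 1131 CPM in epilepsy and 1219 CPM in control, above the Pvalb nuclei in both libraries, and the Cnr1 and Cck nuclei at 192 CPM (11 UMIs) in epilepsy and 139 CPM (13 UMIs) in control. Pcdh9 was higher in MGE than in CGE nuclei, with a log2 ratio of MGE to CGE nuclei of 1.14 (0.88 to 1.40) in epilepsy and 0.81 (0.64 to 0.98) in control, where 22.4% of genes were past 1.5-fold higher and 21.6% lower in epilepsy, and 21.3% higher and 16.1% lower in control. Pcdh7 had a ratio of -0.72 (-1.18 to -0.25) in epilepsy and -0.33 (-0.69 to 0.04) in control, the second of which does not exclude 0. Among CGE nuclei it was highest in the Vip nuclei, at 1346 CPM in epilepsy and 1341 CPM in control: the Cnr1 and Cck nuclei, at 542 CPM in epilepsy and 459 CPM in control, were near the Pvalb nuclei, at 514 CPM in epilepsy and 609 CPM in control, and the Sst nuclei, at 540.2 CPM in epilepsy and 519 CPM in control. Pcdh7 was at 65.1 CPM (5 UMIs) in epilepsy and 78.0 CPM (13 UMIs) in control in nuclei with Lamp5 and Sv2c. Pcdh19 had 0 UMIs in the Vip nuclei of both libraries, which held 37136 UMIs of all genes in epilepsy and 41003 in control. A 0 on so few UMIs does not give a level. In all interneurons Pcdh19 was at 78.4 CPM in epilepsy and 86.1 CPM in control.

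Between the libraries the interneurons differed in Pcdh9. It was at 2701 CPM (896 UMIs) in epilepsy and 3349 CPM (2218 UMIs) in control, a log2 ratio of -0.31 (-0.42 to -0.20), and the intervals of the other 5 members measured held 0. No member was past 1.5-fold in all interneurons, where 5.36% of genes were higher and 7.62% lower. In CGE nuclei Pcdh9 was at 1654 CPM in epilepsy and 2568 CPM in control, a ratio of -0.63 (-0.92 to -0.36) and past 1.5-fold lower, where 7.64% of genes were higher and 8.33% lower. It was lower in the Cnr1 and Cck nuclei (1154 CPM in epilepsy, 2113 CPM in control) and in the Vip nuclei (2424 CPM in epilepsy, 3609 CPM in control). In MGE nuclei it was at 3633 CPM in epilepsy and 4502 CPM in control, a ratio of -0.31, and no member was past 1.5-fold, where 5.97% of genes were higher and 7.94% lower. Pcdh15 in MGE nuclei had a ratio of 0.40 (0.09 to 0.71). The Pcdh9 values moved with the clustering: the CGE ratio was -0.26 without centring by library and -0.38 with likely doublets kept, and the MGE ratio was -0.08 with likely doublets kept.

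**Figure D4:**
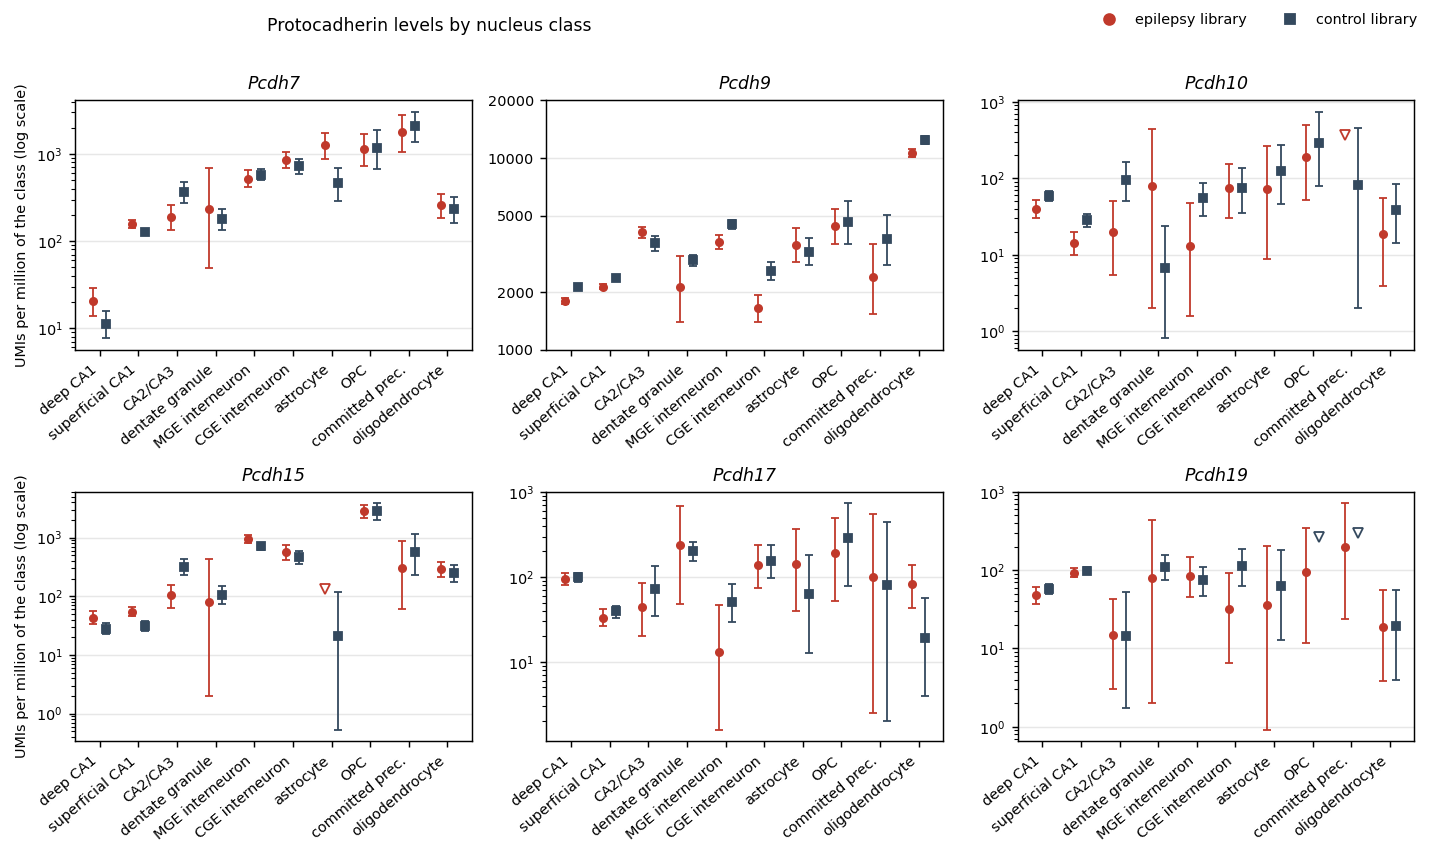
CPM (log y axis) of 6 members in 10 classes (x axis) in epilepsy (red circles) and control (dark squares), with 95% Poisson intervals and open triangles for upper bounds where no UMI was counted. The highest point of Pcdh9 is the oligodendrocyte-like class, at 10637 CPM in epilepsy and 12444 CPM in control, and that of Pcdh15 the oligodendrocyte precursor-like class, at 2823 CPM in epilepsy and 2833 CPM in control.

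Among glia, Pcdh9 was highest in oligodendrocyte-like nuclei and Pcdh15 in their precursors. Pcdh9 was at 10637 CPM (1691 UMIs) in epilepsy and 12444 CPM (1941 UMIs) in control, a log2 ratio of oligodendrocyte-like to CA1 pyramidal-like nuclei of 2.47 in epilepsy and 2.51 in control. Of all genes measured, 30.3% were past 1.5-fold higher in oligodendrocyte-like nuclei and 35.0% lower in epilepsy, and 32.8% higher and 33.6% lower in control. With the mixed cluster counted as oligodendrocytes the class was at 7033 CPM in epilepsy and 7714 CPM in control. The log2 ratio of epilepsy to control was -0.23 (-0.32 to -0.13), and it was -0.10 for nuclei with at least 500 detected genes and -0.13 with the mixed cluster counted in. No member was past 1.5-fold in these nuclei, where 6.3% of genes were higher and 6.57% lower.

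Along the oligodendrocyte lineage each of the 3 members measured had its own course. Oligodendrocyte precursor-like nuclei numbered 28 in epilepsy and 15 in control, and committed precursor-like nuclei 10 in epilepsy and 9 in control. Pcdh15 was at 2823 CPM (59 UMIs) in the precursors of the epilepsy library, 298 CPM (3 UMIs) in its committed precursors and 289 CPM (46 UMIs) in its oligodendrocytes. In the control library these levels were 2833 CPM (39 UMIs), 564 CPM (7 UMIs) and 250.02 CPM (39 UMIs). Pcdh7 was at 1148, 1791 and 258 CPM along the same order in epilepsy and at 1162, 2094 and 231 CPM in control, so that its level was above that of oligodendrocytes in both kinds of precursor. Pcdh9 was at 4402, 2388 and 10637 CPM in epilepsy and at 4648, 3785 and 12444 CPM in control.

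**Figure D5:**
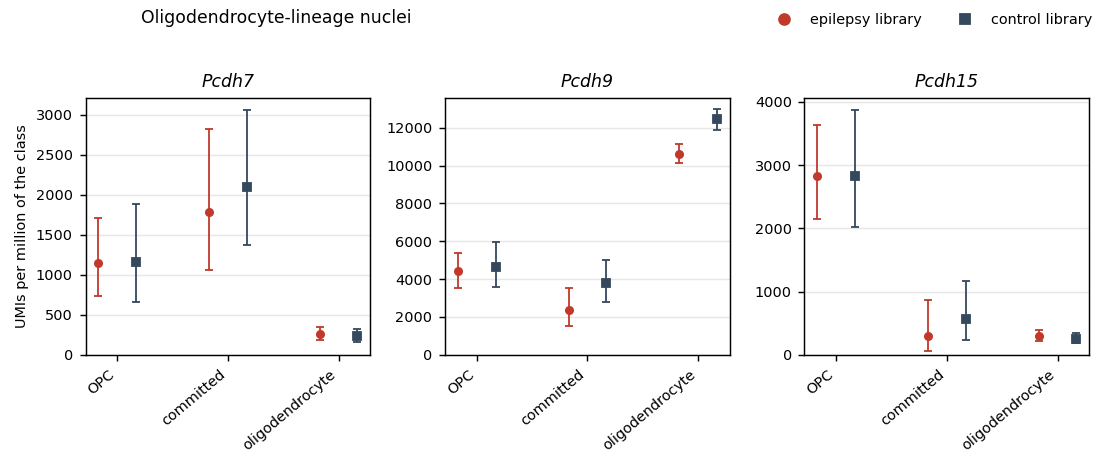
CPM of Pcdh7, Pcdh9 and Pcdh15 in oligodendrocyte precursor-like, committed precursor-like and oligodendrocyte-like nuclei (x axis) of the epilepsy (red) and control (dark) libraries with 95% Poisson intervals. Pcdh15 is highest in the precursors, at 2823 CPM in epilepsy and 2833 CPM in control, and Pcdh9 in the oligodendrocytes, at 10637 CPM in epilepsy and 12444 CPM in control.

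Set against oligodendrocytes, the precursors had a Pcdh15 log2 ratio of 3.29 (2.71 to 3.87) in epilepsy and 3.50 (2.82 to 4.18) in control, and a Pcdh9 ratio of -1.27 (-1.59 to -0.97) in epilepsy and -1.42 (-1.80 to -1.06) in control. The Pcdh7 ratio was 2.15 (1.36 to 2.92) in epilepsy and 2.33 (1.38 to 3.22) in control. Between the 2 kinds of precursor, the intervals of Pcdh7 held 0 in both libraries, as did that of Pcdh9 in control. Of all genes measured in the comparison of precursors with oligodendrocytes, 20.6% were past 1.5-fold higher in the precursors and 51.8% lower in epilepsy, and 17.1% higher and 57.0% lower in control. For all precursor-like nuclei together no member was past 1.5-fold between the libraries, where 9.66% of genes were higher and 12.4% lower.

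In astrocyte-like nuclei Pcdh7 had 1263 CPM (35 UMIs) in epilepsy and 459 CPM (22 UMIs) in control, a log2 ratio of 1.46 (0.65 to 2.30). With 31 nuclei in epilepsy and 30 in control, 25.4% of the 169 genes measured in this class were past 1.5-fold higher and 32.5% lower. The summed level of the 7 astrocyte markers was 11115 CPM in epilepsy and 7366 CPM in control, with none at 0, and that of the 10 CA1 pyramidal markers was 722 CPM in epilepsy (2 at 0) and 2713 CPM in control (0 at 0). The part of these in the Pcdh7 value was not tested. The Pcdh7 ratio was 0.86 when every nucleus had equal weight. Pcdh9 had 3536 CPM in epilepsy and 3255 CPM in control, and Pcdh15 had 0 UMIs in epilepsy, which allows up to 133 CPM, and 1 UMI in control.

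Dentate granule-like nuclei could be described in the control library alone, since the epilepsy library held 14 of them. Relative to CA1 pyramidal-like nuclei of control, their log2 ratios were 1.61 for Pcdh17, 1.21 for Pcdh7, 1.80 for Pcdh15 and -2.56 for Pcdh10, the last on 2 UMIs, where 24.7% of genes were past 1.5-fold higher and 22.8% lower.

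The other non-clustered protocadherins listed with the members were Pcdh1, Pcdh11x, Pcdh12, Pcdh18 and Pcdh20. In CA1 pyramidal-like nuclei Pcdh1, an adhesion molecule also known from airway epithelium, was at 30.5 CPM in epilepsy and 43.6 CPM in control, a log2 ratio of -0.51 (-0.78 to -0.26). Pcdh20 was at 3.77 CPM (22 UMIs) in epilepsy and 9.98 CPM (97 UMIs) in control, a ratio of -1.40 (-2.14 to -0.72). Pcdh11x was at 21.9 CPM in epilepsy and 13.7 CPM in control, a ratio of 0.68 (0.32 to 1.04), and in interneurons, where its level was higher, at 69.3 CPM in epilepsy and 140 CPM in control, a ratio of -1.02 (-1.75 to -0.35). As for Pcdh15, the part of free RNA in the Pcdh11x value of pyramidal nuclei was not tested. Pcdh12 and Pcdh18 had 0 UMIs in the nuclei kept of both libraries.

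Of 30 listed partner genes, 24 had at least 50 UMIs in CA1 pyramidal-like nuclei. One group was the WAVE complex, which several non-clustered protocadherins recruit to remodel actin; others were cadherin and endocytosis partners, phosphatase and nuclear partners, tip-link genes and regulators of Pcdh10 turnover. Past 1.5-fold were 1 gene higher, where 8.65% of all genes were, and 0 lower, where 5.0% were, and their median log2 ratio was -0.01, against 0.00 over all genes. The gene was Cdh23, the tip-link cadherin that pairs with the Pcdh15 protein in hair cells, at 17.8 CPM in epilepsy and 5.76 CPM in control, a ratio of 1.63 (1.15 to 2.13). In superficial-like nuclei Cdh23 was at 20.7 CPM in epilepsy and 5.21 CPM in control, and Fmr1, the fragile X protein gene, at 20.3 CPM in epilepsy and 33.9 CPM in control. There 24 partners were measured, with 1 past 1.5-fold higher and 2 lower (Fmr1 and the phosphatase gene Ppp1ca), beside 7.1% and 5.76% of all genes. In deep-like nuclei 22 were measured, with 0 higher and 1 lower, the transcription factor gene Mef2c at -0.76, beside 5.2% and 8.58% of all genes. In interneurons 15 were measured, with 0 higher and 2 lower, Abi1 of the WAVE complex at -0.81 and Mef2a at -0.72, beside 5.36% and 7.62% of all genes. Counts this small are near those shares. In CA2/CA3 pyramidal-like nuclei 7 were measured, with 1 higher and 0 lower, beside 11.1% and 11.8% of all genes. The gene was Cdh2, which encodes N-cadherin, with a ratio of 0.68. The 9 WAVE genes measured in CA1 had a median of -0.10, with none past 1.5-fold.

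Across 8 classes in 2 libraries (16 points, which share libraries and depth), the genes whose log levels followed each member most closely were found among 6211 genes. Pcdh15 was followed by Tmem108 (Pearson r = 0.94), Ncald (0.93) and Ptpre (0.92), and Pcdh7 by Ctnnal1 (0.89), Camk2d (0.87) and Cadm1 (0.86). Pcdh9 was followed by Rffl (0.88), Otud7b (0.87) and Plcl1 (0.86), and Pcdh19 by Tfe3, Alkbh8 and Xpo6 (0.89 each). With 1 CPM added before the log, as in these values, Pcdh10 and Pcdh17 had looser followers. They were C2cd3 (0.81), Prkaa1 (0.79) and Sfpq (0.77) for Pcdh10 and Cdc73 (0.76), Pld3 (0.75) and Cpsf6 (0.74) for Pcdh17. With 10 CPM added, Pcdh19 was followed by Sbf2 (0.81), Smarca1 (0.80) and Alkbh8 (0.80), and Pcdh10 by C2cd3 at 0.82. The order of Pcdh19 and Pcdh10 thus depended on the amount added. These are descriptions across classes, with no test.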

How the data were processed

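Nuclei were isolated from micro-dissected dorsal CA1 (4 slices of 300 µm), sorted and loaded (15000 per sample) on the 10x Chromium 3′ version 2 system, and read as 75 bp pairs on a HiSeq2500, per the labels' protocols. Cell Ranger 2.2.0, FastQC and the builds GRCm38 and mm10 are named in the submitters' processing notes. How barcodes were chosen, the annotation, the strand setting and intron counting: not given in the sources used here. Deposited values are raw UMI counts per gene and nucleus, 1 matrix per condition; every sum, CPM value and ratio was computed from them.

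Nuclei with at least 200 genes and under 5% mitochondrial counts were used, a filter that removed none. Scrublet (scanpy 1.11.5, expected rate 0.06) marked 0.0975% of epilepsy and 0.109% of control nuclei, which is too few for it to have worked, so the 3% with the highest scores (92 and 110 nuclei) were removed. The 2000 most variable genes other than the members, standardised within each library, gave 30 principal components, 20 neighbours and Leiden clusters (leidenalg 0.10.2, resolution 1, seed 1). Clusters were named from fixed marker lists; the limits that keep mixed clusters unnamed and split the precursors were set after the clusters were seen. Names rebuilt in this way may differ from those of the study.

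UMIs were summed per class and library, and epilepsy to control ratios are for classes of at least 20 nuclei in each. Ratios have exact conditional binomial intervals and levels exact Poisson intervals. The ratio intervals alone were tried on simulated Poisson counts, which hold no spread between nuclei. A gene is measured with at least 50 UMIs over both groups compared and is named as past a fold at 1.5. UMIs count molecules, and intervals cover counting error only. A percent of genes past a fold is over all genes measured. All 7 members, 5 related genes, partners past the fold, and the 3 genes most alike (at least 200 UMIs, log2 of CPM plus 1, no predicted models) are named. The members and lists were chosen with earlier results of these data known. edgeR 4.0.16 and DESeq2 1.42.0 served for scaling factors alone. Promoters came from RefSeq (GRCm38.p6) and matched all 7 members; protein sequences were not used here. Python 3.11.15, numpy 2.4.6, scipy 1.17.1, pandas 2.3.3, matplotlib 3.10.9 and R 4.3.3 were used. Some results are not reported here.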

Additional observations from a re-analysis of the deposited data

Results flagged for a closer look

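The epilepsy to control ratios of 3 members pointed opposite ways in CA1 pyramidal-like and CA2/CA3 pyramidal-like nuclei, with intervals that excluded 0 in each class; the difference was not tested, since each condition has 1 library. The log2 ratio in CA1 minus that in CA2/CA3 was 2.45 (1.67 to 3.24, counting error only) for Pcdh15, 1.29 (0.66 to 1.91) for Pcdh7 and -0.38 (-0.54 to -0.22) for Pcdh9. Differences were computed only where a member's intervals excluded 0 on opposite sides in CA1 and another class. Intervals of differences picked in this way exclude 0 through that choice and add no further evidence. The CA2/CA3 values rest on 65 epilepsy and 40 control nuclei, whose makeup differed: Tshz2 was at 713 CPM in epilepsy and 1114 CPM in control there, and Cpne4 at 1358 CPM in epilepsy and 793 CPM in control.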

How the results depend on the processing

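No paired analysis was possible because each condition has 1 library, and for the same reason no library could be left out. Of 66 alternative values for CA1 pyramidal-like nuclei, 66 kept their sign, as did 59 of 60 for superficial over deep and 321 of 336 in other classes. The alternatives reuse the same UMIs and several are close to the main setting. CA1 pyramidal-like nuclei numbered 5179 in the main clustering, 5179 at Leiden resolution 0.5 and 5177 at 2.0. The sublayers were less stable. Superficial-like nuclei numbered 1946 in the main clustering, 2596 with likely doublets kept, 2520 with the members kept and 1258 without centring by library. Deep-like nuclei numbered 1349, 1308, 1484 and 1014 in the same order. Superficial over deep was not computed without centring, at other resolutions or with at least 500 detected genes. Scaling factors shift all genes of a class alike. In CA1 the log2 ratios over all alternatives ran 0.69 to 0.93 (Pcdh15), -0.87 to -0.73 (Pcdh10), 0.23 to 0.43 (Pcdh7), -0.46 to -0.27 (Pcdh17), -0.26 to -0.09 (Pcdh19) and -0.28 to -0.14 (Pcdh9). Pcdh9 in CA1 was -0.27 with edgeR TMM factors, -0.28 with DESeq2 size factors and -0.14 with nuclei thinned to 1000 UMIs. Those factors moved all genes by -0.09 (TMM) in CA1, by 0.15 in CA2/CA3 and by -0.35 in astrocyte-like nuclei. The marker score counts Sox5 and Enpp2 as deep markers, though both were lower in the deep-like subcluster than in the other pyramidal nuclei. With sublayers set by each nucleus's marker score (above or below its median) in place of clusters, superficial over deep was 1.29 for Pcdh7, 0.093 for Pcdh9, -0.65 for Pcdh17 and 0.45 for Pcdh19 in epilepsy, and 1.48, 0.042, -0.81 and 0.40 in control. Thinned, Pcdh9 in control was 0.23. Requiring at least 20 UMIs, the genes past 1.5-fold higher were 14.4% in CA1, 8.99% in deep-like and 11.8% in superficial-like nuclei, and partners past it higher numbered 2, 1 and 2. Requiring 200, genes higher and lower were 3.30% and 2.43% in CA1, 2.07% and 2.87% in deep-like and 2.85% and 2.38% in superficial-like nuclei, and partners past it numbered 0 higher in CA1, 0 lower in deep-like, and 0 higher and 0 lower in superficial-like nuclei. With TMM, 8.71% of genes were lower in superficial-like nuclei. Thinned values of astrocyte-like, oligodendrocyte-like and precursor-like nuclei had too few nuclei or UMIs to be given. With at least 500 detected genes, CA2/CA3 pyramidal-like values were left out for the same reason. In the main clustering that class had a median of 3128 UMIs per nucleus in epilepsy and 2843 in control. Whether the same nuclei kept that name at the 500-gene setting was not examined. No cluster was named oligodendrocyte-like at Leiden resolution 0.5, or with the members kept among the genes used to cluster. The sign counts above do not cover these missing values. Leaving out the pyramidal subcluster of few UMIs, chosen after seeing the data, gave Pcdh15 a ratio of 0.77. The causes were not tested. Pcdh8 in every class, and Pcdh10, Pcdh17 and Pcdh19 in the glial classes and Pcdh15 in astrocyte-like nuclei, had fewer than the 50 UMIs set for a ratio.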
